A study of Sus scrofa with 7 samples.

Results

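Fibronectin and 8 integrin subunits were followed across porcine extra-embryonic endoderm (pXEN) cells and porcine embryonic stem cells (ESCs). The 9 genes are FN1, the alpha subunits ITGA5, ITGAV, ITGA6 and ITGA3, and the beta subunits ITGB1, ITGB3, ITGB5 and ITGB8, out of 29510 genes in the deposited tables. FN1 was chosen by its counts, which were above those of any other gene in each pXEN library, so its level in pXEN cells is given as a description with no test. The integrin subunits were picked as receptors for fibronectin and other matrix proteins, with earlier results of these data known. ITGA4, which also binds fibronectin, is not among them and is given with the other subunits. Of the 9 genes, 8 were found by symbol. ITGB3 was found by its Ensembl identifier, ENSSSCG00000017306, since the tables name it CD61.

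The study set 3 pXEN lines beside 2 naïve-like ESC (nESC) lines and 2 primed ESC (pESC) lines, with 1 RNA library for each line. The pXEN lines, at passages 26, 26 and 23, came from inner cell masses of parthenogenetic blastocysts. They grew on mouse embryonic fibroblast feeders in LCDM medium, which held serum, serum replacement, LIF, CHIR99021, dimethindene maleate, minocycline and the ROCK inhibitor Y27632. The nESC lines, at passages 21 and 22, are labelled as derived from inner cell masses. They were kept on the same kind of feeder in LBX medium with FGF, LIF, PD0325901, CHIR99021, SB431542 and doxycycline. The pESC lines, both at passage 20, are labelled as converted from nESCs. They were kept on STO cells, a mouse fibroblast line, in medium with activin A, bFGF, EGF and LIF. Medium and, for pESCs, feeder changed together with the cell type, and their parts cannot be told apart.

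Fibronectin is a large secreted glycoprotein that cells assemble into fibrils of the extracellular matrix. Integrins are surface receptors made of 1 alpha and 1 beta subunit, and the pairing sets which matrix protein is bound. The alpha 5 subunit pairs with beta 1 into the classical fibronectin receptor, which recognises the RGD motif and drives fibril assembly. The alpha V subunit pairs with beta 1, beta 3, beta 5 or beta 8 to bind fibronectin, vitronectin or latent TGF-beta, whereas alpha 3 and alpha 6 pair with beta 1 into laminin receptors. In the mouse embryo, fibronectin and laminin lie in the basement membranes on which the primitive endoderm and its derivatives sit and move.

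The libraries held between 10408164 and 12995720 counts over all genes. A gene with 3 counts, taken here as the detection floor, stood at 0.231 to 0.288 CPM, which are counts scaled to the library total. All 7 endoderm markers examined, GATA4, SOX17 and HNF4A among them, were higher in pXEN cells than in either ESC type, with a summed level of 1855 to 2333 FPKM (counts scaled to library size and to the length of the gene model) against 13.03 to 71.2 FPKM in ESCs. In the ESC libraries SOX2 held 1633 to 2729 counts, but POU5F1 had 0 to 5 counts in every library of the series. NANOG had 0 to 22 counts in the ESC libraries and 60 to 177 in pXEN cells, although both genes are defining markers of ESCs. How well the Sscrofa10.2 gene models of POU5F1 and NANOG take up their reads was not tested, so these counts do not check the labels. Of 15 fibroblast markers 14 were found as a check on the feeder layer, and their summed level was 19.1, 256 and 21.7 FPKM in pXEN lines 1, 2 and 3, 39.6 and 41.7 FPKM in nESCs, and 125 and 169 FPKM in pESCs. Of the 14 markers, 2, 0 and 1 were at 0 counts in the pXEN libraries, 6 and 3 in the nESC libraries, and 1 and 2 in the pESC libraries. Of COL1A1, COL3A1, POSTN and DCN, listed as the defining markers with the rest of the list, none was at 0 in pXEN cells, DCN was at 0 in both nESC libraries and COL1A1 in 1 of them. The markers did not all move together, since TWIST1 had 0 to 1 counts in pXEN cells and 91 to 149 in ESCs. COL3A1 had 4251 counts in pXEN line 2 against 20 and 203 in lines 1 and 3, so line 2 stood apart from the other pXEN lines. The sum in line 2 was mostly that of COL1A1, COL3A1 and COL1A2, at 144, 77.5 and 21.1 FPKM. The COL1A1 value rested on 407 counts over a model of 246 bases. Of the rest, COL5A1 had 343 counts in line 2 and COL6A3 had 144, while DCN had 24, PDGFRB 12 and PRRX1 2. The part of feeder RNA in the results was not tested, and counts of genes are therefore also given without pXEN line 2.

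FN1 lies on chromosome 15 from 130357873 to 130430503 on the minus strand of the Sscrofa10.2 assembly, and its gene model is 8144 bases long. It held 242638, 282906 and 244565 counts in the 3 pXEN libraries, 13144 and 19431 in the nESC libraries, and 3048 and 3449 in the pESC libraries. All pXEN libraries lay above all nESC libraries, which in turn lay above both pESC libraries. As a share of all counts this was 2.33%, 2.24% and 2.14% in pXEN cells, 0.116% and 0.180% in nESCs, and 0.0259% and 0.0265% in pESCs. The 95% Wilson intervals, which cover counting error only, ran from 2.32% to 2.34% in pXEN line 1 and from 0.0250% to 0.0268% in pESC line 1. In each pXEN library the next gene was KRT8, an epithelial keratin, with 129959, 178999 and 130931 counts.

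Per length the place of FN1 was lower. It stood at 3023, 3017 and 2729 FPKM in pXEN cells and ranked 13, 20 and 14 among all genes. Its level was 133 and 204 FPKM in nESCs and 29.6 and 31.4 FPKM in pESCs. By counts FN1 ranked 82 and 44 in the nESC libraries and 590 and 561 in the pESC libraries. The fitted difference of pXEN cells was 17.3-fold above nESCs and 96.3-fold above pESCs, given with no test. Between the ESC types, which the choice of FN1 did not use, FN1 was lower in pESCs by a log2 fold change of -2.48 (SE 0.20, adjusted p = 0.000118, edgeR quasi-likelihood test with Benjamini-Hochberg adjustment over the 17447 genes tested). In these bulk libraries, fewer cells of a type and less RNA per cell cannot be told apart.

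**Figure D1:**
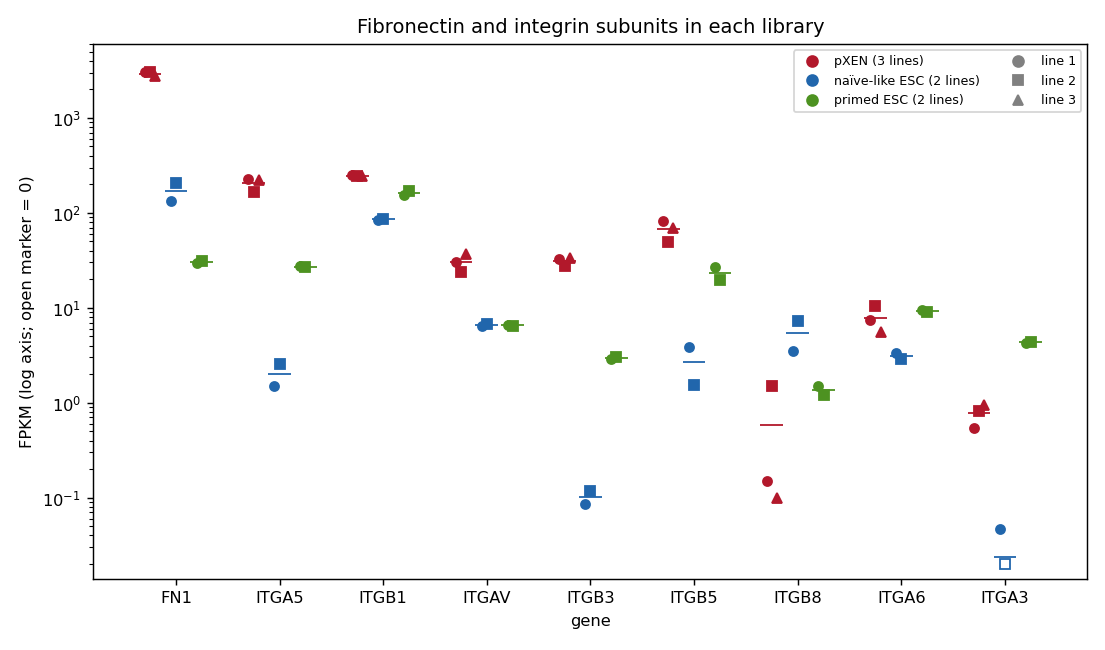
Level of FN1 and the 8 integrin subunits in each library, in FPKM on a log axis, with colours for the pXEN, nESC and pESC groups, marker shapes for lines 1 to 3, short bars for group means and an open marker for a value of 0. FN1, ITGA5, ITGB1, ITGAV, ITGB3 and ITGB5 were higher in all 3 pXEN lines than in any ESC line, while ITGA3 was highest in both pESC lines and pXEN line 2 stood alone for ITGB8.

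ITGA5, the alpha subunit of the classical fibronectin receptor, lies on chromosome 5 from 20442128 to 20465312 on the minus strand. Its level was 226, 167 and 222 FPKM in pXEN cells, 1.49 and 2.55 FPKM in nESCs, and 27.4 and 26.9 FPKM in pESCs. The 3 groups did not overlap, and pESCs lay between pXEN cells and nESCs. Against nESCs the log2 fold change of pXEN cells was 6.66 (SE 0.28, adjusted p = 1.8e-06), and against pESCs it was 2.93 (SE 0.23, adjusted p = 4e-05). ITGA5 was also higher in pESCs than in nESCs, by 3.73 on the log2 scale (SE 0.26, adjusted p = 5.34e-05). FN1 and ITGA5 thus moved in opposite directions between the ESC types. The ratio of FN1 to ITGA5 FPKM was 89.2 and 80.1 in nESCs, 1.08 and 1.17 in pESCs, and 13.4, 18.0 and 12.3 in pXEN cells.

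ITGB1, the common beta subunit that pairs with alpha 5, alpha V, alpha 3 and alpha 6, lies on chromosome 10 from 61450695 to 61502941 on the minus strand. It stood at 248, 242 and 247 FPKM in pXEN cells, 84.6 and 86.5 FPKM in nESCs, and 156 and 171 FPKM in pESCs. The order of the groups was that of ITGA5, with no overlap, but the steps were smaller. The log2 fold change was 1.52 against nESCs (SE 0.10, adjusted p = 9.04e-06) and 0.60 against pESCs (SE 0.09, adjusted p = 0.00115). Between pESCs and nESCs it was 0.92 (SE 0.10, adjusted p = 0.000448). ITGB1 was the integrin subunit with the highest level in every group.

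ITGAV, the alpha subunit of the vitronectin-type receptors, lies on chromosome 15 from 101580814 to 101720783 on the plus strand. Its level was 30.7, 23.7 and 36.8 FPKM in pXEN cells, 6.38 and 6.77 FPKM in nESCs, and 6.66 and 6.43 FPKM in pESCs. Every pXEN line lay above every ESC line, and the ESC types overlapped. The log2 fold change of pXEN cells was 2.20 against nESCs (SE 0.18, adjusted p = 3.75e-05) and 2.22 against pESCs (SE 0.18, adjusted p = 5.61e-05). Between pESCs and nESCs it was -0.02 (SE 0.19, adjusted p = 0.954), which was not called.

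ITGB3, which with alpha V forms a receptor for vitronectin and fibronectin, lies on chromosome 12 from 16717754 to 16775469 on the minus strand. It was at 32.7, 27.5 and 33.8 FPKM in pXEN cells, 0.0850 and 0.118 FPKM in nESCs, and 2.91 and 3.01 FPKM in pESCs. The nESC values rested on 6 and 8 counts. The groups did not overlap, and the log2 fold change of pXEN cells against nESCs was 8.24 (SE 0.21, adjusted p = 3.22e-07). Against pESCs it was 3.41 (SE 0.14, adjusted p = 2.79e-06), and pESCs exceeded nESCs by 4.83 on the log2 scale (SE 0.22, adjusted p = 8.49e-06).

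ITGB5, another partner of alpha V in vitronectin binding, lies on chromosome 13 from 145063935 to 145108286 on the plus strand. Its gene model covers only 881 bases, the shortest of the 9, and its counts were 494 to 718 in pXEN cells, 41 and 16 in nESCs, and 302 and 231 in pESCs. It stood at 82.7, 48.7 and 69.8 FPKM in pXEN cells, 3.83 and 1.55 FPKM in nESCs, and 27.1 and 19.4 FPKM in pESCs. The groups did not overlap, and pXEN line 2 was the lowest of its group. The log2 fold change of pXEN cells was 4.62 against nESCs (SE 0.41, adjusted p = 5.01e-05) and 1.53 against pESCs (SE 0.32, adjusted p = 0.0055). Without pESC line 2 the latter was 1.30 with an adjusted p of 0.0629, and without nESC line 1 the former was 5.40. Between pESCs and nESCs the log2 fold change was 3.09 (SE 0.42, adjusted p = 0.00117), and without nESC line 1 it was 3.88. Over the 942 genes on chromosome 13 with a mean log2 CPM above 1, the median difference of pXEN cells was 0.50 from nESCs and 0.41 from pESCs on the log2 scale, where the median over all 14474 such genes was 0.012 and 0.0021. This chromosome-wide difference was carried mainly by pXEN lines 1 and 3, which lay above line 2 by a median of 0.40 on the log2 scale on chromosome 13, against -0.04 over all such genes, and ITGB5 itself was 0.63 higher in lines 1 and 3 than in line 2. Its part in the ITGB5 values was not tested.

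ITGB8, which with alpha V activates latent TGF-beta, lies on chromosome 9 from 98589971 to 98766514 on the plus strand, and the tables class its model as a processed transcript. It had 4, 47 and 3 counts in pXEN cells, 116 and 230 in nESCs, and 52 and 44 in pESCs, which corresponded to 0.150, 1.5 and 0.101 FPKM, to 3.52 and 7.25 FPKM, and to 1.52 and 1.20 FPKM. Only pXEN line 2 reached the level of pESCs, and this was also the line with the high COL1A1 and COL3A1 values. The part of feeder RNA was not tested. ITGB8 was lower in pXEN cells than in nESCs by a log2 fold change of -3.17 (SE 0.89, adjusted p = 0.0167). This call was lost without nESC line 2 (-2.56, adjusted p = 0.108), and without pXEN line 2 the value was -5.41. Against pESCs the log2 fold change was -1.17 (SE 0.91, adjusted p = 0.324) with all lines and -3.41 (adjusted p = 0.00101) without pXEN line 2. The difference between pESCs and nESCs, -2.00 (SE 0.95, adjusted p = 0.148), was not called, but passed at an adjusted p of 0.0058 when only those 4 libraries were fitted.

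ITGA6, the alpha subunit of laminin receptors with beta 1 or beta 4, lies on chromosome 15 from 87830505 to 87900014 on the plus strand. It stood at 7.42, 10.6 and 5.53 FPKM in pXEN cells, 3.35 and 2.86 FPKM in nESCs, and 9.42 and 9.0 FPKM in pESCs. Both pXEN cells and pESCs lay above nESCs, and overlapped with each other. The log2 fold change against nESCs was 1.33 for pXEN cells (SE 0.26, adjusted p = 0.00344) and 1.55 for pESCs (SE 0.28, adjusted p = 0.00473). Between pXEN cells and pESCs it was -0.22 (SE 0.25, adjusted p = 0.494), and without pXEN line 2 it was -0.50 and called lower (adjusted p = 0.0249).

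ITGA3, the alpha subunit of another laminin receptor with beta 1, lies on chromosome 12 from 26250190 to 26308837 on the plus strand. It had 28, 49 and 55 counts in pXEN cells, 3 and 0 in nESCs, and 279 and 311 in pESCs, or 0.544, 0.815 and 0.957 FPKM, 0.0473 and 0 FPKM, and 4.23 and 4.41 FPKM. It was highest in pESCs, and both nESC libraries were at or under the detection floor. ITGA3 was lower in pXEN cells than in pESCs by a log2 fold change of -2.47 (SE 0.38, adjusted p = 0.0011). Its call against nESCs passed at an adjusted p of 0.000458 for pXEN cells and 0.000161 for pESCs. From the summed counts, scaled by library totals, the ratio of pXEN cells to nESCs was 28.3 (95% counting interval 9.46 to 139) and that of pESCs to nESCs was 176 (59.8 to 854). All 3 nESC counts came from nESC line 1, without which nESCs stood at 0 counts. Without nESC line 2 the fitted log2 fold change of pXEN cells was 3.97 in place of 4.89, and that of pESCs was 6.44 in place of 7.36.

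Of the 8 integrin subunits, 7 were higher and 1 was lower in pXEN cells than in nESCs, where 54.5% of all genes tested were called, 28.3% as higher and 26.2% as lower. Their median log2 fold change was 3.41, beside 0 over all genes tested. Against pESCs 5 were higher, 1 was lower and 2 were not called, where 48.3% of all genes were called, 23.9% as higher and 24.4% as lower, and the median was 1.07 beside -0.01. Without pXEN line 2 the counts were 7 higher and 1 lower against nESCs, where 60.0% of all genes were called, and 5 higher and 3 lower against pESCs, where 55.4% were called. Between pESCs and nESCs 6 were higher in pESCs and none was lower, where 32.2% of all genes were called, 19.0% as higher and 13.3% as lower, and the median was 2.32 beside 0.01. Fibroblast markers also differed in that comparison, with 5 of 12 tested higher and 1 lower in pESCs (median 2.76), and DCN had 344 and 780 counts in pESCs against 0 in nESCs. Of the trophectoderm markers CDX2, GATA3 and TFAP2C, all 3 tested were higher in pESCs, and the summed level of the 4 found was 41.0 to 44.6 FPKM in pESCs against 0.661 to 1.39 FPKM in nESCs and 0.812 to 1.81 FPKM in pXEN cells. Of the 7 endoderm markers 5 were higher in pESCs than in nESCs and none was lower, at a summed 67.5 to 71.2 FPKM against 13.03 to 13.4 FPKM. Most of the pESC sum was COL4A1, at 57.7 and 60.4 FPKM in pESCs and 1.32 and 0.824 FPKM in nESCs. SOX17, HNF4A, PDGFRA and FOXA2 rested in pESCs on 21 and 9, 13 and 9, 22 and 17, and 3 and 3 counts. GATA4 and GATA6 were the 2 not called, and GATA6 was at 8.08 and 9.84 FPKM in pESCs against 12.1 FPKM in both nESC libraries. The part of cells of other types in the pESC values was not tested. The 3 comparisons share libraries pairwise, and these counts are not independent of each other.

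**Figure D2:**
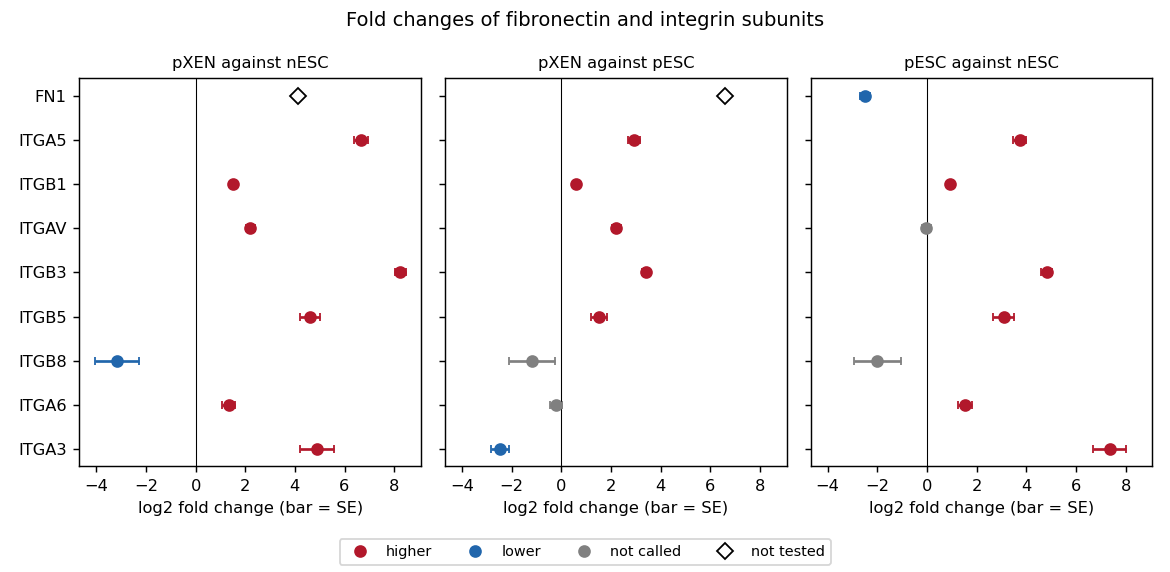
Log2 fold changes of FN1 and the integrin subunits in the 3 comparisons, from the edgeR fit, with bars for the standard error and colours for the call at an adjusted p of 0.05. ITGA5, ITGB1, ITGAV, ITGB3 and ITGB5 were higher in pXEN cells than in both ESC types, ITGA3 changed sides between the comparisons (its points against nESCs rest on 3 counts and are no bound), and the open FN1 points have no test because its pXEN level chose the gene.

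By FPKM, the order of levels in pXEN cells was ITGB1, ITGA5, ITGB5, ITGB3, ITGAV, ITGA6, ITGA3 and ITGB8. The ranges over lines overlapped between the neighbours ITGB3 and ITGAV and between ITGA3 and ITGB8. In nESCs ITGB1 was followed by ITGAV, ITGB8, ITGA6, ITGB5, ITGA5, ITGB3 and ITGA3, and the ranges of ITGAV and ITGB8, of ITGA6 and ITGB5, and of ITGB5 and ITGA5 overlapped. In pESCs the order was ITGB1, ITGA5, ITGB5, ITGA6, ITGAV, ITGA3, ITGB3 and ITGB8, with an overlap of ITGA5 and ITGB5. ITGA5 was thus second in pXEN cells and pESCs and sixth in nESCs.

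The makeup of the alpha subunits was compared within libraries, where scaling between libraries plays no part. ITGA5 took 85.4%, 82.7% and 83.7% of the summed FPKM of the 4 alpha subunits in pXEN cells, 13.2% and 20.9% in nESCs, and 57.4% and 57.5% in pESCs. Among these 4, the largest share in nESCs was that of ITGAV, at 56.6% and 55.6%. ITGA4 and ITGA2, which are outside the 4, stood near ITGAV in nESCs. ITGA4 was at 6.59 and 5.54 FPKM and ITGA2 at 5.48 and 6.81 FPKM, beside 6.38 and 6.77 FPKM for ITGAV. The mean ITGA5 share was 83.9% ± 1.38 (SD, n = 3) in pXEN cells, 17.1% ± 5.44 (SD, n = 2) in nESCs and 57.5% ± 0.0602 (SD, n = 2) in pESCs. All pXEN libraries lay above all ESC libraries, and the difference of 46.6 percentage points had a two-sided exact permutation p of 0.0571, the smallest that 3 against 4 libraries allow (35 splits, adjusted p = 0.0571 over the 2 shares tested).

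Among the 4 beta subunits ITGB1 took 68.3%, 75.7% and 70.4% of the summed FPKM in pXEN cells, 91.9% and 90.7% in nESCs, and 83.1% and 87.8% in pESCs. The mean was 71.5% ± 3.85 (SD, n = 3), 91.3% ± 0.896 (SD, n = 2) and 85.5% ± 3.31 (SD, n = 2). All pXEN libraries lay below all ESC libraries, by 16.9 percentage points on average (group means 71.5% and 88.4%), again at the smallest exact permutation p of 0.0571. The lower ITGB1 share went with ITGB5 and ITGB3, which took 22.7%, 15.2% and 19.9% and 8.98%, 8.58% and 9.64% in pXEN cells. The short ITGB5 model bears on these shares. The summed FPKM of the 4 alpha subunits per ITGB1 was 1.07, 0.835 and 1.07 in pXEN cells, 0.133 and 0.141 in nESCs, and 0.306 and 0.273 in pESCs. ITGB1 thus exceeded these 4 alpha subunits by far in both ESC types and was near to their sum in pXEN cells.

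**Figure D3:**
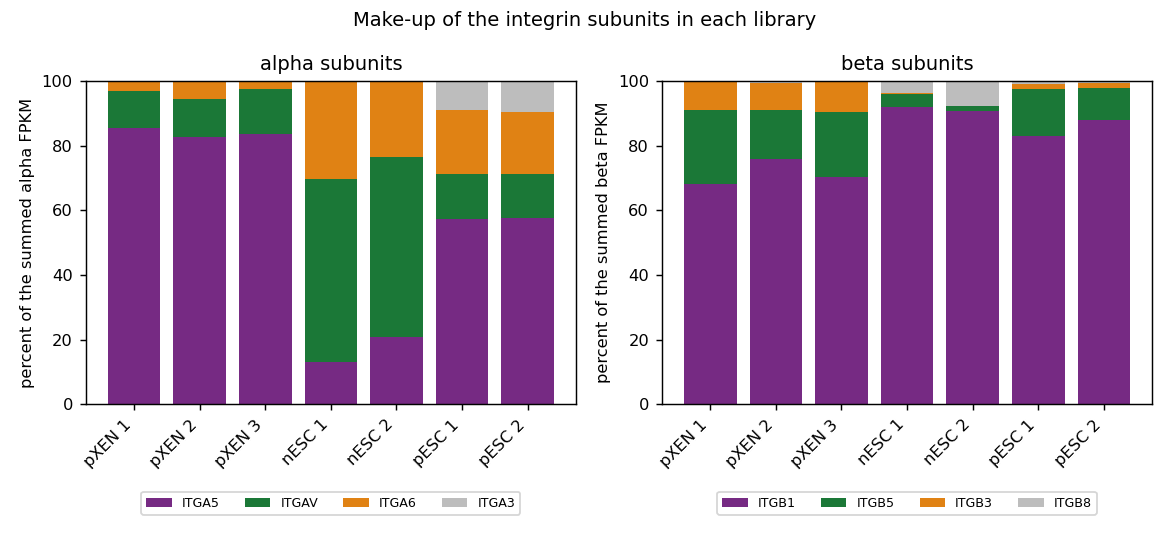
Share of each subunit in the summed FPKM of the 4 alpha subunits (left) and the 4 beta subunits (right), in percent, with 1 stacked bar per library. ITGA5 filled 82.7% to 85.4% of the alpha bar in pXEN cells against 13.2% to 57.5% in ESCs, and ITGB1 filled 68.3% to 75.7% of the beta bar against 83.1% to 91.9%.

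Of the other integrin subunits 16 were found and 15 tested. In pXEN cells 6 were higher and 2 lower than in nESCs, a share called that was near the 54.5% of all genes (median log2 fold change 1.41, or 1.05 with genes absent from a group set at their lower bound). Against pESCs 5 were higher and 5 lower, where 48.3% of all genes were called (median 0.16). Without pXEN line 2, 13 were tested, and 4 were higher and 2 lower against nESCs (60.0% of all genes called) and 3 higher and 5 lower against pESCs (55.4%). With 1 ESC library left out there were fewer calls over all genes too. Without either nESC line the calls against nESCs were 3 higher and 2 lower (39.6% of all genes without line 1 and 41.2% without line 2), and without either pESC line those against pESCs were 3 higher and 3 lower (31.0% and 30.2%). In pESCs 4 were higher and 2 lower than in nESCs, where 32.2% of all genes were called (median 0.57, or 0.26 with bounds). ITGA2, the alpha subunit of a collagen receptor, was at 19.9, 10.6 and 18.7 FPKM in pXEN cells, 5.48 and 6.81 FPKM in nESCs, and 2.29 and 2.50 FPKM in pESCs. It was higher in pXEN cells than in nESCs (log2 fold change 1.41, SE 0.26, adjusted p = 0.00261) and than in pESCs (2.78, SE 0.29, adjusted p = 0.000156).

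The collagen-receptor subunit ITGA1 had 98, 104 and 93 counts in pXEN cells, 0 and 1 in nESCs, and 6 and 8 in pESCs. The ratio of pXEN cells to nESCs was 190 with a 95% counting interval from 33.8 to 7510, and the single nESC count came from line 2. ITGB4, the partner of alpha 6 in hemidesmosomes, was at 12.3 to 13.6 FPKM in pXEN cells and 11.5 to 11.6 FPKM in pESCs but 1.34 to 1.65 FPKM in nESCs. Its log2 fold change was 3.10 against nESCs (SE 0.14) and 0.16 against pESCs (SE 0.12, adjusted p = 0.287). ITGA4, the alpha subunit that binds fibronectin at a site other than RGD and VCAM1, ran the other way, with 0.241, 0.232 and 0.458 FPKM in pXEN cells, 6.59 and 5.54 FPKM in nESCs, and 2.17 and 2.94 FPKM in pESCs. It was lower in pXEN cells by -4.28 (SE 0.30, adjusted p = 1.45e-05) and -3.02 (SE 0.30, adjusted p = 0.000124) on the log2 scale. ITGB2, the leukocyte beta subunit, had 265 and 185 counts in pESCs and 0 in both nESC libraries, which made pESCs at least 134-fold higher than the floor of 3 counts over the group.

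Most other matrix ligands of these integrins were higher in pXEN cells. Of 16 tested, 13 were higher and 1 lower in pXEN cells than in nESCs, where 54.5% of all genes were called (median log2 fold change 3.76). Against pESCs 12 were higher and 1 lower, where 48.3% were called (median 2.23). Without pXEN line 2 the counts were 13 and 2 (60.0% of all genes called), and 10 and 2 (55.4%). Without either pESC line 8 were higher and none was lower than in pESCs (31.0% and 30.2% of all genes called). MFGE8, a secreted RGD protein that binds alpha V integrins, was at 175, 269 and 151 FPKM in pXEN cells, 11.2 and 11.5 FPKM in nESCs, and 30.6 and 31.1 FPKM in pESCs (log2 fold changes 4.12, SE 0.27, and 2.69, SE 0.25). THBS1, thrombospondin 1, was at 53.8, 58.7 and 76.9 FPKM in pXEN cells, 1.18 and 3.35 FPKM in nESCs, and 6.25 and 6.36 FPKM in pESCs (4.80, SE 0.42, and 3.33, SE 0.39). Without nESC line 2 the former was 5.74.

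CCN1 and CCN2 are matricellular proteins. CCN1 was at 135, 203 and 157 FPKM in pXEN cells, 5.43 and 18.3 FPKM in nESCs, and 12.5 and 14.5 FPKM in pESCs. CCN2 was at 119, 60.4 and 161 FPKM in pXEN cells, 3.50 and 13.5 FPKM in nESCs, and 26.0 and 36.8 FPKM in pESCs. For both genes the pXEN lines lay above all ESC lines, and the nESC lines differed widely. The log2 fold change of CCN1 was 3.79 against nESCs (SE 0.49), with 3.16 without nESC line 1 and 4.92 without nESC line 2, and 3.62 against pESCs (SE 0.48). For CCN2 it was 3.73 against nESCs (SE 0.63), with 3.05 and 5.01 without nESC line 1 and 2, and 1.86 against pESCs (SE 0.56, adjusted p = 0.0266). This last call was lost without pXEN line 1, pXEN line 3, pESC line 1 or pESC line 2, at adjusted p from 0.0573 to 0.164.

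FBN2, the microfibril protein fibrillin 2, reached 98.4 and 106 FPKM in pXEN lines 1 and 3 but only 17.9 FPKM in line 2, beside 3.28 and 5.94 FPKM in nESCs and 14.4 and 18.8 FPKM in pESCs. Line 2 fell into the range of pESCs. The related FBN1, named after its value was seen, was the 1 lower ligand, at 0.453, 3.40 and 0.627 FPKM in pXEN cells, 4.94 and 7.74 FPKM in nESCs, and 9.14 and 8.30 FPKM in pESCs, and pXEN line 2 stood above the other pXEN lines. It had log2 fold changes of -2.07 (SE 0.70, adjusted p = 0.036) against nESCs and -2.52 (SE 0.70, adjusted p = 0.0188) against pESCs, which were -3.55 and -3.99 without pXEN line 2. The call against nESCs was lost without any 1 of pXEN line 1, pXEN line 3, nESC line 1 and nESC line 2 (adjusted p from 0.07 to 0.169), and that against pESCs without pESC line 1 (0.078) or pESC line 2 (0.0671). TGFB1, whose latent form is a ligand of alpha V integrins, was at 35.9, 29.7 and 34.7 FPKM in pXEN cells, 2.19 and 0.699 FPKM in nESCs, and 7.61 and 10.9 FPKM in pESCs. It was higher by 4.52 (SE 0.41) and 1.86 (SE 0.33) on the log2 scale, and the former was 5.55 without nESC line 1 and 3.93 without nESC line 2. LTBP1, which tethers latent TGF-beta to the matrix, differed from nESCs (2.36, SE 0.14) but its difference from pESCs, 0.20 (SE 0.12, adjusted p = 0.216), was not called. Between pESCs and nESCs 5 of the 16 ligands were higher in pESCs and none was lower, a share near the 32.2% of all genes called (median 1.45, or 1.35 with bounds). Without either pESC line 3 were higher (16.2% of all genes called), and FN1, lower in pESCs, was not among the listed ligands.

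Of 13 genes for fibronectin matrix assembly and co-receptors, 11 were higher and none was lower in pXEN cells than in nESCs, where 54.5% of all genes were called (median log2 fold change 4.09, or 2.96 with bounds). Against pESCs 7 were higher and 2 lower, where 48.3% were called (median 1.10). Without pXEN line 2, 12 were tested, with 10 higher and none lower against nESCs (60.0% of all genes called) and 7 higher and 3 lower against pESCs (55.4%). FBLN1, fibulin 1, a fibronectin-binding matrix protein, was at 548, 544 and 514 FPKM in pXEN cells, 0.216 and 1.57 FPKM in nESCs, and 89.8 and 99.0 FPKM in pESCs. Its log2 fold change was 9.23 (SE 0.54) and 2.51 (SE 0.36), and the former was 8.39 without nESC line 1 and 11.2 without nESC line 2. FURIN, a protease that cleaves several integrin alpha precursors, was at 373, 303 and 371 FPKM in pXEN cells, 1.45 and 1.14 FPKM in nESCs, and 48.7 and 60.3 FPKM in pESCs (8.06, SE 0.22, and 2.69, SE 0.16).

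FBLN2, fibulin 2, was higher by 5.40 (SE 0.33) against nESCs and 3.86 (SE 0.29) against pESCs on the log2 scale. The heparan sulphate proteoglycans SDC1 and SDC3, syndecans that serve as matrix co-receptors, were higher by 1.87 (SE 0.15) and 2.96 (SE 0.36) against nESCs and by 1.32 (SE 0.14) and 1.99 (SE 0.34) against pESCs. The other syndecans SDC2 and SDC4 were higher by 4.09 (SE 0.26) and 2.41 (SE 0.38) against nESCs. Against pESCs SDC2 was not called (0.31, SE 0.21, adjusted p = 0.246), and SDC4 was higher by 1.10 (SE 0.34, adjusted p = 0.0294), a call lost without pXEN line 1, pXEN line 3 or pESC line 1 (adjusted p from 0.0568 to 0.195). ANXA2, an annexin, was at 349 to 528 FPKM in pXEN cells and 279 to 307 FPKM in pESCs but 21.4 to 26.2 FPKM in nESCs. The 2 lower than in pESCs were TGM2, a transglutaminase that acts as a fibronectin co-receptor (-2.25, SE 0.38), and the hyaluronan receptor CD44 (-2.21, SE 0.45, or -2.81 without pXEN line 2), named after their values were seen. In pESCs 11 of the 13 genes were higher than in nESCs and none was lower, where 32.2% of all genes were called (median 3.61), and without nESC line 2 the count was 7 (20.2% of all genes called). In the same comparison 5 of 12 fibroblast markers were higher, 1 was lower and 6 were not called. All 3 trophectoderm markers tested were higher, and of 7 endoderm markers 5 were higher and 2 were not called. The part of these markers in the count of 11 was not tested.

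Of 22 adaptor and signalling genes of cell adhesion tested, 13 were higher and 3 lower in pXEN cells than in nESCs, where 54.5% of all genes were called (median log2 fold change 0.87). Against pESCs 7 were higher and 6 lower, where 48.3% of all genes were called, and the median of 0.10 lay near 0 because members went both ways. Without pXEN line 2 the counts were 13 and 3 (60.0% of all genes called), and 8 and 6 (55.4%), and without pESC line 1 those against pESCs were 4 and 5 (31.0%). TLN1, talin 1, which links beta tails to actin, was at 61.0, 58.5 and 50.6 FPKM in pXEN cells, 21.8 and 18.3 FPKM in nESCs, and 28.0 and 34.7 FPKM in pESCs (1.49, SE 0.15, and 0.86, SE 0.15). Of the kindlins, which activate integrins, FERMT2, kindlin 2, was higher in pXEN cells by 2.08 (SE 0.18) and 1.62 (SE 0.17), and FERMT1, kindlin 1, was lower by -0.70 (SE 0.20, adjusted p = 0.0187) and -1.31 (SE 0.20, adjusted p = 0.00111). FERMT3, kindlin 3, was not called (-0.0069, adjusted p = 0.995, and 0.09, adjusted p = 0.868). The FERMT1 call against nESCs was lost without nESC line 1 (-0.28, adjusted p = 0.16).

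The actin linkers VCL (vinculin), ACTN1 and ZYX were higher in pXEN cells than in nESCs, by 1.73 (SE 0.18), 1.74 (SE 0.11) and 0.79 (SE 0.10), and none of these 3 was called against pESCs (-0.16, 0.22 and -0.05). ACTN4, another alpha-actinin, was higher by 1.52 (SE 0.10) against nESCs and by 0.28 (SE 0.09, adjusted p = 0.0426) against pESCs, and the latter call was lost without pXEN line 1, pESC line 1 or pESC line 2 (adjusted p from 0.0962 to 0.242). In pESCs 13 of the 22 were higher than in nESCs and none was lower, where 32.2% of all genes were called (median 0.73). Of 12 fibroblast markers 5 were higher there, 1 was lower and 6 were not called. Of 3 trophectoderm markers 3 were higher, and of 7 endoderm markers 5 were higher and 2 were not called. The part of these markers was not tested.

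Of 9 integrin partners and inhibitors, 4 were higher and 3 lower than in nESCs, where 54.5% of all genes were called (median log2 fold change -0.33), and 4 were higher and 3 lower than in pESCs, where 48.3% were called (median 0.20). Without pXEN line 2 the numbers in each direction were 4 and 3 in both comparisons, where 60.0% and 55.4% of all genes were called. Without pESC line 2 the calls against pESCs were 2 higher and 2 lower (30.2%). CD151, a tetraspanin that binds laminin-binding integrins, was at 68.5, 98.5 and 57.9 FPKM in pXEN cells, 4.48 and 4.06 FPKM in nESCs, and 9.23 and 12.2 FPKM in pESCs (4.13, SE 0.28, and 2.82, SE 0.26). CD47, the integrin-associated protein that also binds thrombospondin, was higher by 1.08 (SE 0.13) and 0.92 (SE 0.13). SHARPIN, an inhibitor of beta 1 integrin activation, was lower by -0.34 (SE 0.12, adjusted p = 0.0446) and -0.50 (SE 0.12, adjusted p = 0.0103). Its call against nESCs was lost when any 1 of the 5 libraries compared was left out (adjusted p from 0.0613 to 0.172), and that against pESCs without pESC line 2 (0.0863). Between pESCs and nESCs 3 were higher and 1 was lower in pESCs, where 32.2% of all genes were called (median 0.27). By the edgeR test there were 0 calls without nESC line 2 or without pESC line 2, with 3 of the 9 at an unadjusted p below 0.05 in each case, and 1 call without pESC line 1.

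**Figure D4:**
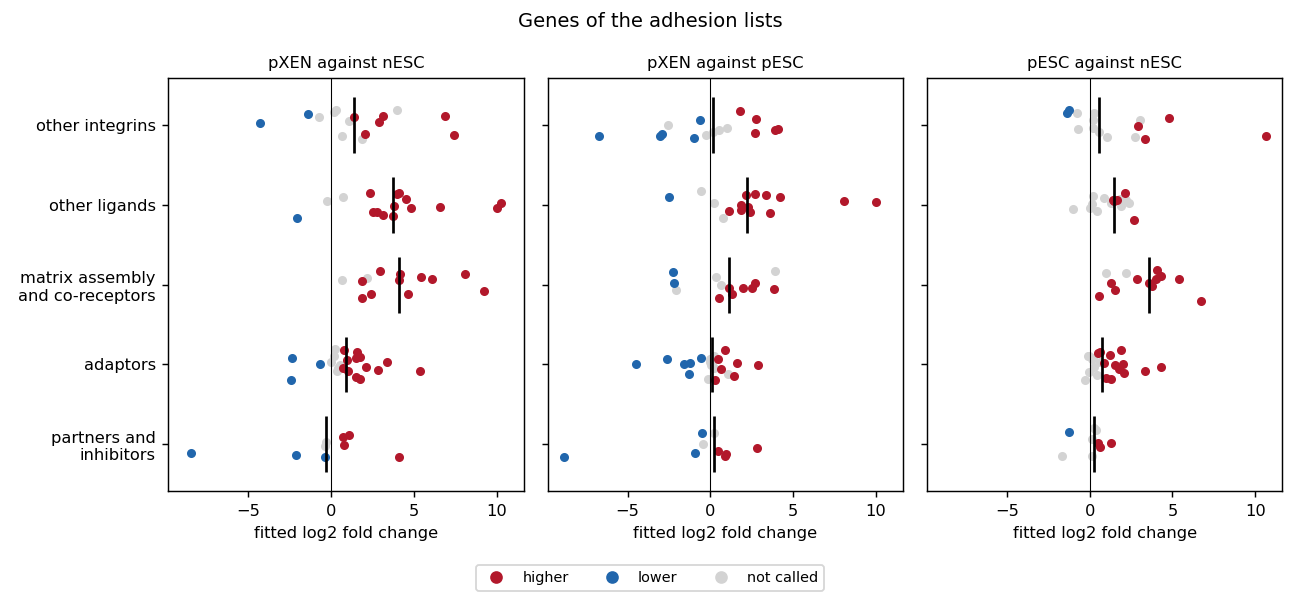
Log2 fold change of each tested gene of the 5 adhesion lists in the 3 comparisons, with 1 point per gene, colours for the call and a thick bar for the median of the list. Matrix ligands and assembly genes lay mostly to the right against nESCs (medians 3.76 and 4.09), while adaptors and partners lay on both sides of 0 against pESCs (medians 0.10 and 0.20), and fitted values of genes absent from a group are no bound.

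The genes with a pattern most like FN1 over the 7 libraries were found by the root mean square difference in log2(FPKM + 1), each gene centred on its own mean. The closest were SPON1 (0.44), ANXA4 (0.46), FRZB (0.56), PAF-AH (0.64) and CPI17 (0.69), where the median over all genes tested was 2.83. They were taken as the smallest values, so their distance from the median is no test. SPON1, an extracellular matrix protein, was at 287, 388 and 220 FPKM in pXEN cells, 5.19 and 12.3 FPKM in nESCs, and 1.95 and 1.59 FPKM in pESCs. FRZB, a secreted Wnt antagonist, lies on chromosome 15 as FN1 does.

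Among the same genes, those most like ITGA5 were BAIAP2L1 (0.25), BCAM (0.26), NID1 (0.26), LOXL2 (0.32) and MMP15 (0.32), with a median over all genes of 2.57. BCAM is a laminin-binding adhesion molecule, NID1 (nidogen 1) a basement membrane linker, LOXL2 a matrix crosslinking oxidase and MMP15 a membrane matrix metalloproteinase. BCAM was at 293, 235 and 294 FPKM in pXEN cells, 3.42 and 3.36 FPKM in nESCs, and 48.8 and 56.0 FPKM in pESCs.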

How the data were processed

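RNA of 7 cell lines was sequenced from ribosomal RNA-depleted, directional libraries on an Illumina NovaSeq. Per the labels' processing notes the authors used HISAT2 2.0.5, featureCounts 1.5.0-p3, edgeR 3.22.5 and the build Sscrofa10.2. The strand setting of the counting is not given in the sources used here. The authors deposited counts per gene (whole numbers, not normalized) and FPKM, which divide by gene length and by a library total scaled by the authors. Counts were tested with edgeR 4.0.16 (R 4.3.3): TMM scaling, filterByExpr, a quasi-likelihood fit of all 7 libraries with group as the term, and Benjamini-Hochberg adjustment over 17447 genes, with calls at an adjusted p of 0.05. The common biological coefficient of variation was 0.223. FPKM served for levels, shares and likeness.

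Shares were compared by two-sided exact permutation (scipy 1.17.1). DESeq2 1.42.0, limma 3.58.1 on log2(FPKM + 0.1) and log2(FPKM + 1), upper-quartile scaling, other filters, the replicate block and leaving out each library were alternatives. The edgeR p-values rest on the spread between lines within groups, estimated over all libraries together. The permutation p-values of the shares rest on reassigning libraries, with both ESC types pooled. No other gene in the tables overlaps any of the 9 genes. Members and gene lists were chosen with earlier results of these data known. All 9 members were named, and of each list up to 5 called genes per comparison with the highest mean log2 CPM were eligible, of which examples are given. FERMT3, SDC2 and SDC4 were named in addition, after their values were seen. The counts without pXEN line 2, and the values and counts of listed genes without each library in turn, were added after the data were seen.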

Additional observations from a re-analysis of the deposited data

How the results depend on the processing

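The number of integrin subunits called was 8, 6 and 6 for pXEN cells against nESCs, pXEN cells against pESCs and pESCs against nESCs. With a minimum of 10 counts in every library, ITGB3, ITGA3 and ITGB8 fell out of all 3 comparisons. Only 5 subunits were then tested, and for pXEN cells against nESCs 5 were called. Leaving out 1 library at a time gave 7 to 8, 5 to 8 and 6 to 6 calls. The replicate block gave 8, 6 and 6, so it changed no count. The line numbers were not shown to pair the libraries, since the deviations of same-numbered lines correlated at 0.0173, 0.0332 and -0.00892 over 17447 genes. The difference in the ITGA5 share ranged from 38.6 to 53.4 percentage points and that in the ITGB1 share from -19.0 to -15.3 when 1 library was left out. ITGAV in pESCs against nESCs, not called at a log2 fold change of -0.02, ranged from -0.068 to 0.026 with 1 library left out and was above 0 without nESC line 2 (adjusted p = 0.968) and without pESC line 2 (0.0096, adjusted p = 1). Upper-quartile scaling moved the median log2 fold change of all genes against nESCs to -0.16, with 43.6% of calls higher instead of 51.9%. With limma on FPKM, the log2 fold change of ITGB3 against nESCs was 7.29 with a pseudocount of 0.1 and 4.87 with a pseudocount of 1, beside 8.24 from the counts. For ITGA3 it was 2.81 and 0.78 beside 4.89, and for pESCs against nESCs 5.19 and 2.38 beside 7.36. The depth limits ITGA3 in nESCs and ITGB8 in pXEN cells, which rest on a few counts.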

Other observations

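The tables hold a second row described as integrin alpha V, on chromosome 15 from 101553938 to 101566282 on the minus strand, with a model of 1133 bases that was not added to ITGAV. It held 236, 203 and 285 counts in pXEN cells, 43 and 65 in nESCs, and 60 and 75 in pESCs. A second row described as integrin alpha 6, on an unplaced scaffold with a model of 839 bases, held 104, 93 and 61 counts in pXEN cells, 43 and 32 in nESCs, and 118 and 127 in pESCs. The alpha V row was highest in pXEN cells, and the alpha 6 row was lowest in nESCs.

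CD9, a tetraspanin that associates with beta 1 integrins, was named after its values were seen. It had 0, 1 and 0 counts in pXEN cells, 320 and 31 in nESCs, and 322 and 175 in pESCs. It was called lower in pXEN cells than in nESCs (adjusted p = 0.0013, edgeR quasi-likelihood test) and than in pESCs (adjusted p = 0.00118), in contrast to the tetraspanin CD151, and the nESC lines differed widely from each other. Its fitted log2 fold change against nESCs was -8.46, with -6.02 without nESC line 1, -9.32 without nESC line 2 and -10.4 without pXEN line 2, and these are no bounds since pXEN cells held 1 count.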
